A study of Mus musculus with 3 samples.

Results

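The 7 genes Gas5, Snhg1, Snhg3, Snhg5, Snhg6, Snhg8 and Snhg12 are long non-coding RNAs of the mouse whose introns carry small nucleolar RNAs (snoRNAs). They were taken by gene symbol from the deposited tables and are 7 of 55536 annotated genes. All of them were measured in 3 libraries of chromatin-bound RNA, and each averaged 10 counts or more, a level that 19.2% of the 13374 long non-coding genes and 30.5% of the 272 long non-coding genes tagged as hosts of non-coding RNA reached. The libraries came from primary macrophages grown from bone marrow of C57BL/6J mice. The cells were exposed to 100 ng/ml Lipid A, the membrane anchor of bacterial lipopolysaccharide, for 12 hours, kept without it for 12 hours and given 100 ng/ml Lipid A again for 40 minutes. RNA of the chromatin fraction was sequenced after depletion of ribosomal RNA. The labels number 3 biological replicates and start them from 1 µg, 250 ng and 500 ng of RNA, in the order of replicates 1 to 3. Sex and age were not collected, all 3 samples carry the same strain-level donor, and there is no untreated group. The values therefore describe 1 condition, no comparison between conditions was made, and the spread covers only differences between these samples, which may be technical.

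A snoRNA host gene is transcribed and spliced, and its snoRNAs are trimmed out of the excised introns while the exons are joined. C/D box snoRNAs guide ribose methylation of ribosomal RNA, and H/ACA box snoRNAs guide its pseudouridylation. Some, among them Snord22 and the Snora73 pair, are known instead for a part in processing the ribosomal RNA precursor. The spliced host RNA is often short-lived, because many hosts have no long reading frame and are degraded by nonsense-mediated decay once ribosomes meet them in the cytoplasm. Gas5 was named for its accumulation in growth-arrested cells, in which translation is low. RNA on chromatin is mostly nascent or recently made, so introns that are still unspliced are part of what this fraction holds.

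The annotation places 29 snoRNA genes inside the 7 hosts on the same strand, 10 in Gas5, 8 in Snhg1, 5 in Snhg12, 2 each in Snhg5 and Snhg3, and 1 each in Snhg6 and Snhg8. Snord80 in Gas5 and Snora16a in Snhg12 each have a second, nearly coincident entry. One sequence per host is shown, namely its snoRNA with the highest mean count. For Gas5, Snhg5 and Snhg6, whose snoRNAs were all at 0 in the gene tables, the table made from the reads decided. The near-identical partners in Snhg5 and Snhg3 are added. Sequences are from the GENCODE M21 transcripts, written from the beginning of each snoRNA to its end on the strand of the host, with T for U. Capitals mark a C box (TGATGA within the first 20 bases) with a D box (CTGA within the last 15 bases), or an ACA box (ACA ending 3 bases before the end of the RNA).
Gm22357 in Gas5, chr1:161036057-161036139: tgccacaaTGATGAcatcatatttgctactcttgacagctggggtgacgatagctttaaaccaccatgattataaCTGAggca
Snord22 in Snhg1, chr19:8725866-8725991: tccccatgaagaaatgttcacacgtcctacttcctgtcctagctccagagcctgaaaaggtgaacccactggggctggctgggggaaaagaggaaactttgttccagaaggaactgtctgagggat
Snora24 in Snhg8, chr3:123507937-123508066: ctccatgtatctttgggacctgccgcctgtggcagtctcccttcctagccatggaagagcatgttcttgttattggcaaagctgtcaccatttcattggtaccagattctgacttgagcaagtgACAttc
Snord50a in Snhg5, chr9:88521529-88521600: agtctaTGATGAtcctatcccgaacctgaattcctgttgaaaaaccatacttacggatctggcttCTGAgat
Snord50b in Snhg5, chr9:88521797-88521868: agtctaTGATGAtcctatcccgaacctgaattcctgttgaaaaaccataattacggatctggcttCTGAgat
Snora44 in Snhg12, chr4:132309941-132310069: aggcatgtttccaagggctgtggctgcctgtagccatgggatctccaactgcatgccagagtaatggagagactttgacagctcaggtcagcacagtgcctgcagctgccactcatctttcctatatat
Snord87 in Snhg6, chr1:9942463-9942549: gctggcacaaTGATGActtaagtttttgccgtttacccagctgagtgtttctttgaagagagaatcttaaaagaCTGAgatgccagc
Snora73a in Snhg3, chr4:132352775-132352979: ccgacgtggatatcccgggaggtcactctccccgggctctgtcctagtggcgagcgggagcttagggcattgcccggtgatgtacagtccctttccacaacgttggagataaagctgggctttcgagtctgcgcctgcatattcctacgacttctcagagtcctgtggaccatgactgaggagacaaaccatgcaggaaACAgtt
Snora73b in Snhg3, chr4:132352322-132352526: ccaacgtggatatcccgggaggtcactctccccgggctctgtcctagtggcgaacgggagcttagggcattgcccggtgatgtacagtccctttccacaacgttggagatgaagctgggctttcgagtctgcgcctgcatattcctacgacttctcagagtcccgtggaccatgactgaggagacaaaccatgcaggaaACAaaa

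Of the 29 snoRNA genes, 17 held these exact C and D boxes, 6 held the ACA box and 6 neither, among them Snord22 and Snora44. Among all 1558 annotated snoRNA transcripts the same search found both C and D boxes in 19.9% and the ACA box in 19.1%. No match means only that these letters are not in that window. Snord50a and Snord50b, each 72 bases long, differ at 1 base, C50A, counted from the first base, with Snord50a first. Snora73a and Snora73b, each 205 bases long, are 96.6% identical and differ by G3A, G54A, A111G, T164C, G203A, T204A and T205A, with Snora73a first. Reads within the shared stretches of such a pair cannot be assigned to one gene, so the split between partners is uncertain.

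Gas5 was the most abundant of the hosts by far. Its level was 109 TPM (a count scaled by gene length and by library, with the same total in every library) in replicate 1, 152 in replicate 2 and 117 in replicate 3, a mean of 125.9 ± 22.8 TPM (SD, n = 3) from 1268, 1712 and 1223 expected counts. Replicate 2 lay above both other libraries, whereas in the table made from the reads replicate 1 was the highest, with 97.4 TPM against 88.8 and 74.9. Gas5 (ENSMUSG00000053332.13, mm10 chr1:161034422-161038539, plus strand) ranked 28 by TPM among the 13374 long non-coding genes and 8 among the 272 host-tagged ones. Among all long non-coding genes it ranked 86 by CPM and 105 in the table made from the reads, where it was 12 among the host-tagged ones. Its counts made up 61.3% of those of all 7 hosts.

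Snhg1, a host of C/D box snoRNAs, followed with 31.5, 37.3 and 32.1 TPM in replicates 1 to 3 (mean 33.6 ± 3.18 SD, n = 3), from 536, 609 and 554 counts. Snhg1 lies at chr19:8723475-8726443 on the plus strand and ranked 134 among long non-coding genes by TPM, 221 by CPM and 465 by TPM in the table made from the reads. Snhg8, which carries the H/ACA snoRNA Snora24, had 16.8, 20.6 and 17.6 TPM (18.3 ± 2.04) from 101, 120 and 95 counts and lies at chr3:123507552-123508404 on the minus strand. In Snhg1 and Snhg8 replicate 2 had the highest TPM. By CPM, and by TPM in the table made from the reads, replicate 1 was the highest for both. Snhg5, the host of the Snord50 pair at chr9:88521050-88522929 on the minus strand, had 9.08, 8.85 and 8.42 TPM (8.78 ± 0.335) from 76, 81 and 57 counts.

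The lowest 3 hosts were Snhg12, Snhg6 and Snhg3. Snhg12, with H/ACA and C/D box snoRNAs at chr4:132308623-132311024 on the plus strand, had 5.43, 7.88 and 6.89 TPM (6.73 ± 1.23, n = 3) from 75.1, 109 and 96.1 counts. Snhg6, which carries Snord87 at chr1:9941959-9944118 on the minus strand, had 5.61, 7.27 and 4.87 TPM (5.92 ± 1.23) from 36, 45 and 28 counts, and its range overlapped that of Snhg12. Snhg3, the host of Snora73a and Snora73b at chr4:132348014-132353686 on the minus strand, had 3.12, 2.59 and 3.42 TPM (3.04 ± 0.420) from 15.1, 9.22 and 12.2 counts. Snhg12 and Snhg3 lie near each other on chromosome 4, on opposite strands.

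**Figure D1:**
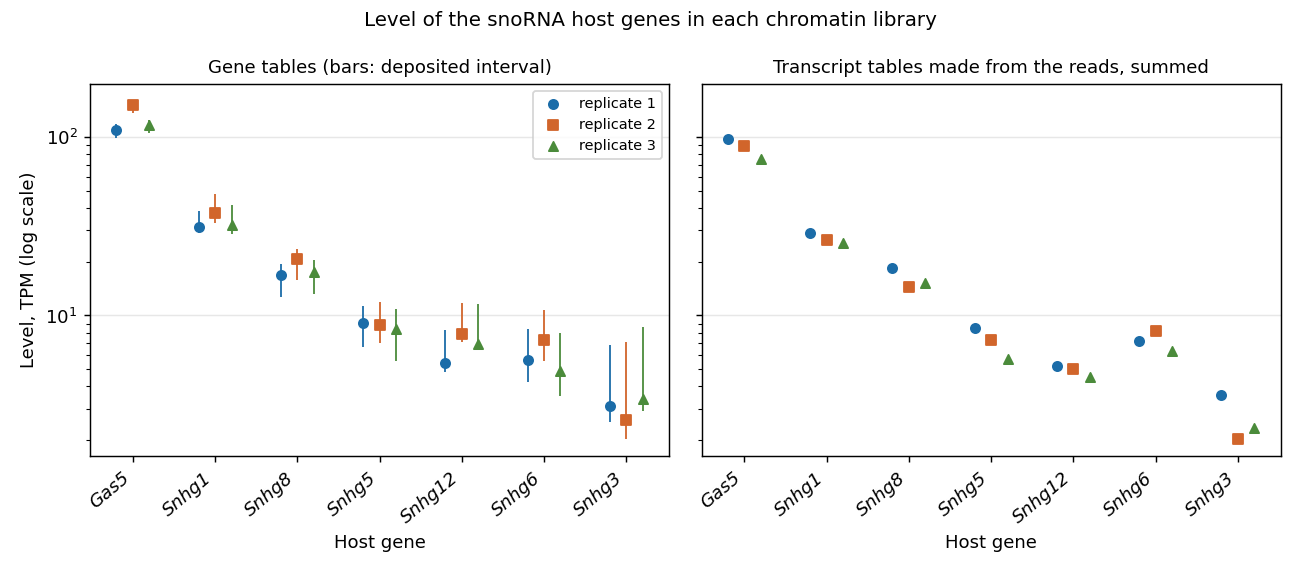
Level in TPM (log scale) of each host gene in the 3 libraries. The left panel shows the gene tables, with the lower and upper bound that the deposited tables give within each library, and the right panel the tables made from the reads, summed over transcripts. Points are single libraries. Gas5 sat above 100 TPM in all 3 libraries of the left panel and above all other hosts in both panels.

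Neighbours in this order were separated by more than the spread between libraries at 5 of 6 steps. Gas5 was 3.72-fold above Snhg1, Snhg1 1.84-fold above Snhg8, Snhg8 2.08-fold above Snhg5, Snhg5 1.32-fold above Snhg12 and Snhg6 1.93-fold above Snhg3, as geometric means of the per-library TPM ratios, and in each the 3 libraries of one gene lay above the 3 of the next. At the step from Snhg5 to Snhg12 and from Snhg6 to Snhg3, the deposited TPM intervals of the genes overlapped in all 3 libraries, so the counts behind those steps do not separate them within a library. Snhg12 and Snhg6 did not differ beyond their spread (1.14-fold, higher in 2 of 3 libraries), and in the table made from the reads Snhg6 was the higher in 3 of 3. An exact sign-flip test over 3 libraries cannot go below p = 0.25, so no p is given for the order. In the table made from the reads the mean levels were 87.0 TPM for Gas5, 27.1 for Snhg1, 16.0 for Snhg8, 7.16 for Snhg5, 4.92 for Snhg12, 7.24 for Snhg6 and 2.64 for Snhg3.

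How far the hosts varied between libraries was compared with counting noise. Counts of each gene were tested against Poisson sampling with a chi-square test, with library sizes scaled by edgeR's TMM factors and Benjamini-Hochberg adjustment over all 14330 genes tested. Of these genes 55.2% varied beyond Poisson sampling, and so did 2 of the 7 hosts, Gas5 and Snhg1. They are the 2 hosts with the most counts, and genes with more counts pass this test more often. With a minimum mean of 100 counts, 73.4% of 8095 genes passed. Gas5 had 91.9, 99.6 and 74.1 CPM (counts scaled by the library total alone), with replicate 3 the lowest (adjusted p = 9.98e-06). Snhg1 had 38.9, 35.5 and 33.6 CPM before TMM scaling, and after it replicate 2 was the lowest. Its adjusted p of 0.0440 was close to the threshold of 0.05, which it missed with total counts in place of edgeR's TMM scaling (adjusted p = 0.0812) and with no minimum beyond 1 count (0.0690). Without replicate 3, Gas5 no longer passed this edgeR-scaled test (adjusted p = 0.838). Snhg1 did not pass it without replicate 1 (0.228) or without replicate 2 (0.245). In the table made from the reads 4 hosts passed, with Snhg5 and Snhg8 added, where 54.8% of genes did.

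The other 5 hosts did not pass the same edgeR-scaled chi-square test, with adjusted p = 0.0891 for Snhg5, 0.215 for Snhg3, 0.351 for Snhg6, 0.477 for Snhg8 and 0.784 for Snhg12. Their counts were low, and a miss at this depth does not show that they were stable. edgeR also estimated a biological coefficient of variation, a model value for spread beyond counting noise that draws each gene towards the trend over all genes. It was 17.1% for Gas5, 17.2% for Snhg1, 20.9% for Snhg8 and for Snhg12, 23.4% for Snhg5, 25.0% for Snhg6 and 31.7% for Snhg3. The median over all tested genes was 22.1%. Counted from the lowest, Gas5 lay at percentile 7.93 of these genes and Snhg1 at 10.2. Both have more counts than the other hosts. No comparison with genes of like count was made, so the percentiles do not show that they were steadier. Estimates of low-count genes in particular lean on the trend over all genes. The plain coefficient of variation of CPM was 14.8% for Gas5, 7.43% for Snhg1 and 12.3% for Snhg8. It was 22.7% for Snhg5, 7.80% for Snhg12, 22.9% for Snhg6 and 35.6% for Snhg3. Only for Snhg3 was it above the edgeR estimate.

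After TMM scaling, replicate 1 was the highest library for Snhg1, Snhg3, Snhg5, Snhg6 and Snhg8, replicate 2 for Gas5 and replicate 3 for Snhg12. Together the 7 hosts took 153, 156 and 125 CPM in replicates 1 to 3. The genes whose centred log2 CPM lay closest to the median of the hosts were Polb, Rufy2, Bin3, U2af1l4 and Gnas, out of 8089 genes compared over the 3 libraries. With 3 libraries such likeness is a description of these samples and no more.

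Most of the RNA counted for Gas5 was in transcripts annotated as retained intron, that is, with an intron left in. The annotation lists 25 transcripts of Gas5, 20 of them of this kind. They held 91.3%, 90.3% and 83.5% of its TPM in replicates 1 to 3 (mean 88.3% ± 4.26 SD, n = 3) and 96.1% ± 1.29 of its counts. For a single library the Wilson 95% interval of the Gas5 share of counts was at most 2.53 percentage points wide, which covers counting error only and not the error of assigning reads to transcripts. Counts weigh long transcripts more than TPM does.

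The other hosts with such transcripts showed the same majority. Snhg1, with 14 retained-intron transcripts of 18, had 90.1%, 85.6% and 84.3% of its TPM in them (86.7% ± 3.05). Snhg8, with 1 of 3, had 56.5%, 65.8% and 60.0% (60.8% ± 4.72). Snhg5, with 3 of 6, had 68.5%, 75.9% and 44.0% (62.8% ± 16.7), and its replicate 3 was the single case under 50% in this table. So 4 of 4 eligible hosts had a mean share of at least 50%, against 36.6% of the 6379 genes with both kinds of transcript and a mean of at least 1 TPM, and against 42.3% of the 78 long non-coding genes among them. By share of counts all 4 were again above 50%, with 95.8% for Snhg1, 78.4% for Snhg8 and 75.5% for Snhg5, beside 25.4% of all genes and 48.7% of long non-coding genes. With so few hosts the comparison is a description. The median share of TPM was 41.9% over all genes.

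In the table made from the reads the mean shares of TPM were 90.2% for Gas5, 71.6% for Snhg1, 52.6% for Snhg8 and 70.8% for Snhg5, where 41% of all genes and 39.7% of long non-coding genes reached 50%. Snhg8 was then below 50% in replicates 1 and 3, with 47.4% and 48.6%. By share of counts that table gave 96.5%, 90.0%, 71.1% and 81.0% for these hosts, where 31.4% of all genes and 48.9% of long non-coding genes reached 50%.

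**Figure D2:**
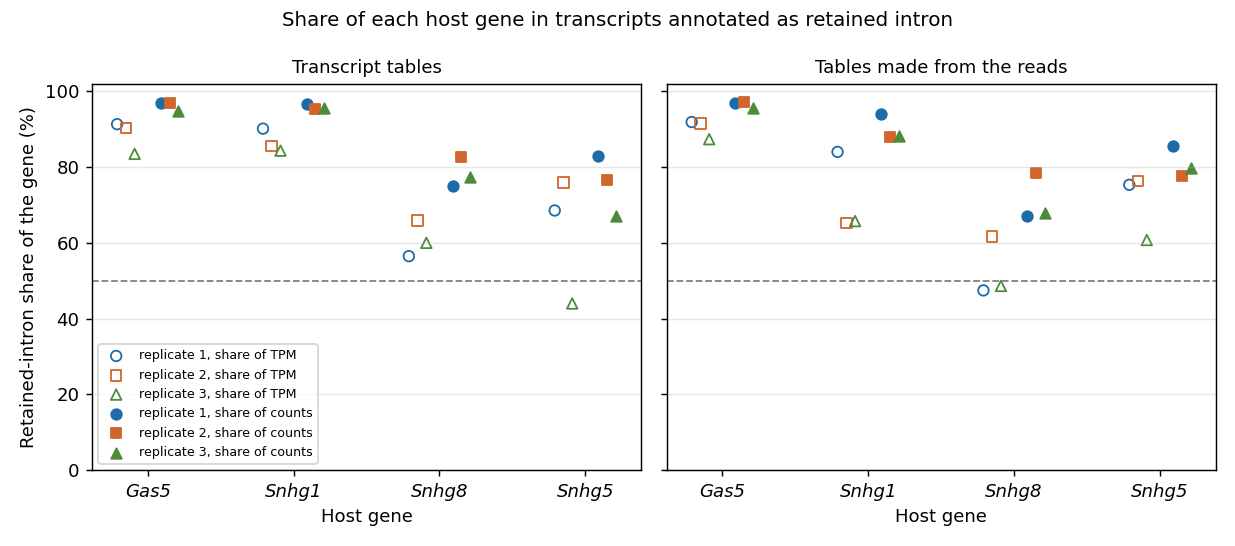
Percent of a gene's TPM (open symbols) or counts (filled symbols) in transcripts annotated as retained intron, for the 4 hosts that have such transcripts, in the 2 kinds of transcript table. Each symbol is 1 library, and the dashed line marks 50%. Gas5 lay above 80% in every library by both measures.

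Snhg12, Snhg6 and Snhg3 have no transcript labelled retained intron, which is a property of the annotation. The label can be bypassed by asking which transcripts hold a whole snoRNA gene within their exons. Such a transcript, as annotated, keeps the intron sequence around that snoRNA. On this measure, added after the data were seen, Snhg12 had 97.8% ± 0.595 of its counts in the 8 of its 10 transcripts that contain a snoRNA. Snhg1 had 94.6% ± 1.17, Gas5 85.7% ± 2.44, Snhg8 78.4% ± 3.92 and Snhg5 41.0% ± 8.22 (SD, n = 3 for each). Snhg6 and Snhg3 had 0%, because none of their annotated transcripts contains a whole snoRNA. Reads of a free snoRNA share that exon sequence, so counts of these transcripts need not all come from RNA that keeps the intron. No share over other genes was computed for this measure.

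The leading transcript of Gas5 was Gas5-218, of 2556 bases in 4 exons, whose first exon runs through 6 of the 10 annotated snoRNA genes. It held 566, 759 and 554 counts and 44.7% of the gene's counts, but 15.5% of its TPM. The fully spliced Gas5-224, with 12 exons in 502 bases, held 31.7, 42.1 and 55.4 counts. Gas5-222, another retained-intron form of 7 exons, held 217, 345 and 206. Gas5-218 led in all 3 libraries and in both transcript tables.

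Snhg1-215, of 2728 bases in 2 exons, led for Snhg1 with 322, 357 and 333 counts (59.6% of counts and 29.1% of TPM). The spliced Snhg1-211, with 10 exons, held 14.0, 18.9 and 19.2. The forms in between were less steady, since Snhg1-203 rested on 68.1, 162 and 155 counts and Snhg1-214 on 85.7, 18.5 and 17.7. They share 853 exon bases, nearly all of the 855 of Snhg1-214 and a smaller part of the 2348 of Snhg1-203, so some reads could have been assigned to either. By TPM, Snhg1-214 led over Snhg1-215 in replicate 1, with 9.40 against 9.14.

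Snhg8-202, a single exon of 776 bases that contains Snora24, led for Snhg8 with 75.8, 99.2 and 73.6 counts, against 25.2, 14.7 and 11.8 for the spliced Snhg8-201. Snhg5-204, which contains Snord50a, led by TPM (31.1%), and Snhg5-206, of 1221 bases, led by counts (34.4%). Both are retained-intron forms. In replicate 3, however, Snhg5-203, which carries no retained-intron label, led by TPM with 40.7% against 25.4% for Snhg5-204. In Snhg12 the counts moved from one transcript to another. Snhg12-210 had 0 counts in replicate 1 and 47.0 and 44.6 in replicates 2 and 3, while Snhg12-208, with the same long first exon, had 47.7, 0 and 0. Snhg12-210 led by TPM on average (25.6%). In the table made from the reads Snhg12-201 was barely ahead of it by TPM, with 25.4% against 25.0%. By counts Snhg12-210 led in both tables, with 32.7% and 33.4%. Snhg6-205 led for Snhg6 (52.8% of TPM) and the 2-exon Snhg3-202 for Snhg3 (66.6%), both with under 35 counts in any library.

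**Figure D3:**
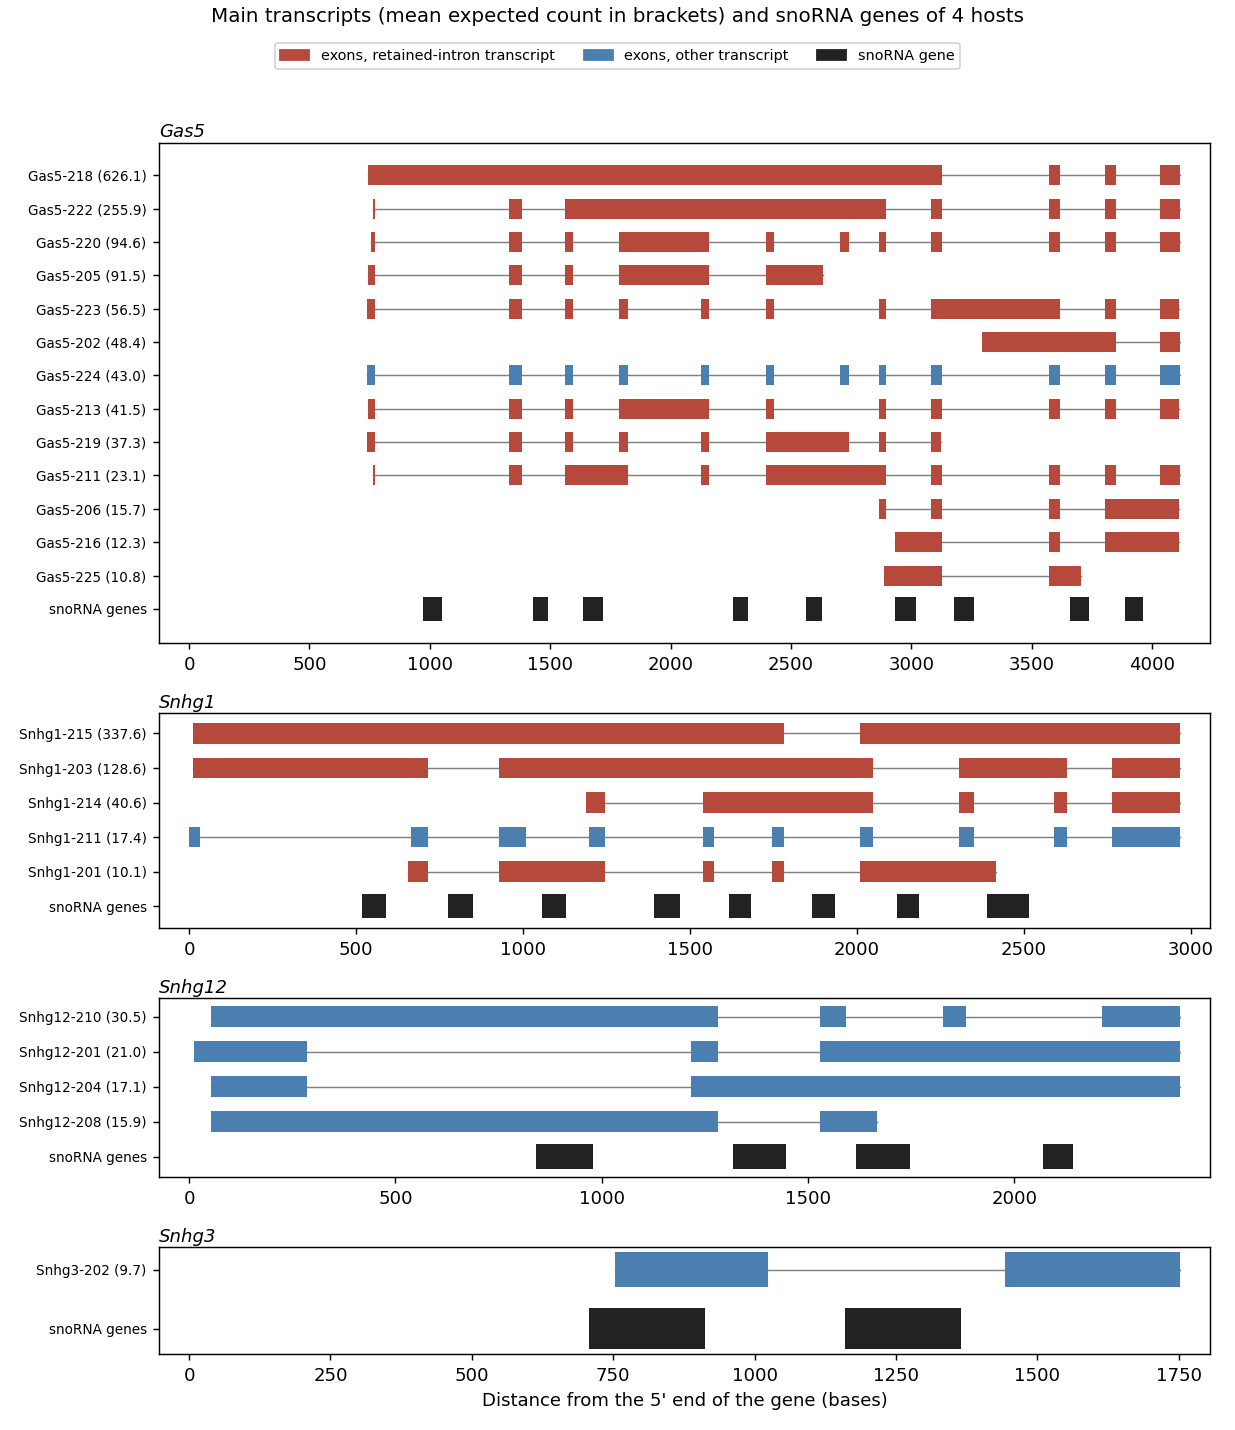
Exons of the transcripts with a mean of at least 10 counts (for Snhg3, its leading transcript with 9.69), drawn to scale by distance in bases from the beginning of the gene, with the mean count in brackets. Red marks retained-intron transcripts, blue the others and black the snoRNA genes. In Gas5 and Snhg1 the transcripts with the most counts run through snoRNA genes, and in Snhg12 they do so without the retained-intron label.

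The snoRNAs themselves were mostly not seen in the gene tables. Of the 29, 3 had a mean of at least 10 counts, against 3.4% of all 1558 annotated snoRNA genes, and 23 were listed at 0 in every library. All 21 snoRNA genes under 100 bases were at 0, and so were all 462 annotated snoRNA genes of that length. Among snoRNA genes of 200 bases or more, 56.4% had a mean of at least 10 counts. That share was 4.45% from 130 to under 200 bases and 0.701% from 100 to under 130 bases, the class of Snord22. The labels give a size range of 250-400 for the libraries. A 0 that every gene of a length class shares says nothing of the level of one of them, so no upper limit is given for the short snoRNAs.

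The 3 snoRNA genes with counts were Snord22 in Snhg1 and the Snora73 pair in Snhg3, each longer than 100 bases. Snora73b had 1751, 1415 and 1078 counts and Snora73a 1325, 1390 and 978. Together they held 226 ± 70.1 counts per count of Snhg3 itself (SD, n = 3), with 204, 304 and 169 in the 3 libraries. In no library did the host reach 16 counts. Both snoRNA genes also lie within the span of Rcc1 on the same strand, which had 32, 60 and 81 counts, so Snhg3 is not the only gene that could carry them. Counts of a short gene and a longer host are not corrected for length here. Snora73a overlaps the first exon of Snhg3-202 over 159 of its 205 bases, so reads there could have been assigned to either.

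Snord22, of 126 bases, had 473, 654 and 504 counts, or 0.954 ± 0.104 per count of Snhg1, which itself had 536 to 609. Its deposited TPM was 22715 in replicate 1 and 0 in replicates 2 and 3, where the tables give it effective lengths of 1.49, 0 and 0 bases. The TPM of such a short gene has no usable meaning, and its counts are used instead. All of Snord22 also lies inside an exon of Snhg1-215, so reads of the unspliced host and of the snoRNA share that sequence.

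In the table made from the reads 7 of the 29 had a mean of at least 10 counts, where 15% of all snoRNA genes did. Gm22357 in Gas5 had 133, 176 and 180 estimated counts there, Snord47, also in Gas5, 27.5, 50.6 and 38.4, and Snord99 in Snhg12 43.7, 43.1 and 56.1. All 3 are under 100 bases and lie wholly within exons of at least 1 transcript of their hosts. Snord22 and the Snora73 pair kept their place with 809, 1599 (Snora73b) and 1421 (Snora73a) on average. Snora44 joined with 12.9. Snora24 in Snhg8 was at 0 in both tables.

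**Figure D4:**
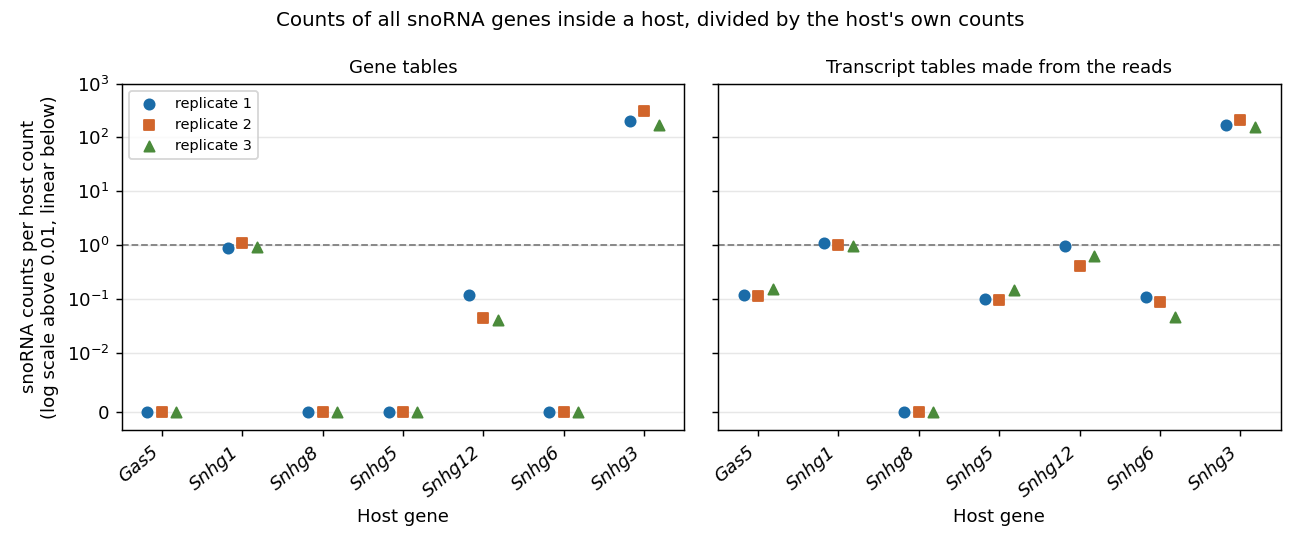
Summed counts of all snoRNA genes inside each host divided by the host's own counts, per library, on an axis that is logarithmic above 0.01 and linear below. The left panel shows the gene tables and the right panel the tables made from the reads. Snhg3 lay above 100 snoRNA counts per host count in every library, and Snhg1 near 1, where the dashed line is.

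Promoters were looked at because snoRNA hosts, like ribosomal protein genes, are known for starts within a run of pyrimidines, the terminal oligopyrimidine signature that ties translation to growth signals. RefSeq promoters of GRCm38.p6 matched 6 of the 7 hosts at 7 starts. Snhg1 and Snhg12, as the 2 with the longest runs, are shown from 30 bases before the start to 20 bases from it on, with a run of C and T that begins within 5 bases of the start in capitals.
Snhg1, chr19:8723457-8723506, plus strand: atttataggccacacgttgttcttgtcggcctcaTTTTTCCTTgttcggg
Snhg12, chr4:132308648-132308697, plus strand: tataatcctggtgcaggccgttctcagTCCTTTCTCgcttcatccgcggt
A run of at least 5 C or T letters was found on the strand of the gene at 5 of the 7 starts, against 32.9% of all 32851 promoters. This search is looser than the signature, because the start need not lie within the run. In Snhg1 the run begins 4 bases after the start and in Snhg3 2 bases after it. The letters TATA lay 45 to 16 bases before the start, on the same strand, at 5 of 7, against 6.72% of all promoters. Both searches were chosen after these sequences were seen. A match is a description and not evidence of a factor or of use of the start in these cells.

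Genes that overlap a host limit what its counts mean, because the sources used here do not state whether the counting used strand. Zbtb37, a zinc finger gene on the opposite strand, overlaps Gas5 over 428 bases but shares no exon base with it. Mcmdc2 shares 127 exon bases with Snhg6 on the opposite strand and had 40, 83 and 118 counts. Snhg3 is affected most. The opposite-strand long non-coding gene Gm17300 covers 705 of its 986 exon bases and had 83.5, 89.7 and 82.8 counts. Rcc1, the nucleotide exchange factor of Ran, shares 135 exon bases with Snhg3 on the same strand and had 32, 60 and 81 counts. Values of Snhg3 and Snhg6 are therefore uncertain.

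Other genes of the pathway set the hosts in context. Of 13 other long non-coding snoRNA hosts matched by symbol, 7 averaged 10 counts or more. In the gene tables Zfas1 was the highest at 75.2 ± 12.4 TPM (SD, n = 3), followed by Snhg15 at 13.6 ± 1.19 and Snhg20 at 12.7 ± 8.58, so none exceeded Gas5. Zfas1 also led in the table made from the reads, at 58.4 TPM, but Snhg14 came next at 18.5. Snhg4, Snhg7 and Snhg16 were not matched. All 27 protein-coding snoRNA hosts were detected, with a median of 34.3 TPM against 8.78 for the 7 long non-coding hosts. Eif4a1 and Eif4a2, which encode the helicase of translation initiation and its paralogue, stood at 285 ± 34.9 and 264 ± 68.7 TPM, and Rpl10, a ribosomal protein gene, at 119.5 ± 27.3. Of these 27 genes 2 were above Gas5 in the gene tables, and 5 in the table made from the reads.

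All 17 genes of snoRNP proteins and their assembly were detected, at a median of 3.21 TPM. In the gene tables the highest were the C/D box core proteins Nop56 (24.6 ± 6.17 TPM) and Nop58 (14.3 ± 4.26) and the methyltransferase Fbl (8.72 ± 1.79). In the table made from the reads the order was different, with the assembly factor Pih1d1 at 30.6 TPM, Nop58 at 27.8 and Nop56 at 18.5 in front, and the list's median was 5.11. Nop56 is itself a snoRNA host and stands in both lists. All 10 nonsense-mediated decay factors were detected as well, led in the gene tables by the kinase Smg1 at 154.5 ± 17.9 TPM, with Smg9 at 39.0 ± 5.79 and Smg5 at 33.9 ± 8.98. These are levels of RNA on chromatin and not of the proteins.

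The libraries held 13802686, 17187499 and 16502813 expected counts in annotated genes after rounding. Small structural RNAs took 60.9%, 51.6% and 52.0% of all TPM, which lowers the TPM of every other gene, and with them left out Gas5 stood at 280 and Snhg3 at 6.84 TPM. Of the macrophage markers 6 of 6 were detected, 0 of 4 for neutrophils and 0 of 3 each for T and B cells in the gene tables, while the table made from the reads gave the T cell gene Cd3d 15.6 TPM. Of the fibroblast markers 2 of 3 had counts, Col1a1 and Col1a2, both at 0 in replicate 1 and summing with the third to 2.97 and 3.76 CPM in replicates 2 and 3. Their part in the values of the hosts was not tested. In bulk RNA, fewer cells of a type and less RNA per cell cannot be told apart.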

How the data were processed

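Chromatin-bound RNA was analysed in 3 libraries of 1 group. The gene and transcript tables that the authors deposited hold expected counts and TPM, laid out as RSEM writes them, with a lower and upper TPM bound per library whose level is not stated. Further transcript tables that the authors deposited hold estimated counts and TPM, laid out as kallisto writes them. Per the records deposited with the files, both used mm10 and GENCODE M21, the first from a transcriptome alignment and the second from the reads. The sources used here name neither aligner nor programs. Entries naming no gene (1.13%, 0.324% and 0.279% of counts) were left out.

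Main values are from the gene tables. The table made from the reads was added up over transcripts and used as the alternative. Expected counts were rounded for edgeR 4.0.16, DESeq2 1.42.0 and the chi-square test, which covered genes averaging 10 counts or more and was tested on simulated data. Positions and transcript types came from GENCODE M21, in which all 55536 genes were found. All 7 hosts are named, with their leading transcripts, snoRNA genes averaging 10 counts or more or the highest of a host, the 3 highest genes per list and the 5 most alike genes. The hosts and lists were chosen with earlier results of these data known. Wilson intervals cover counting error only, and what the deposited TPM bounds cover is not stated.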

Additional observations from a re-analysis of the deposited data

How the results depend on the processing

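With small structural RNAs left out of the TPM total, mean levels were 279.5 for Gas5, 75.1 for Snhg1, 40.8 for Snhg8, 19.8 for Snhg5, 14.9 for Snhg12, 13.2 for Snhg6 and 6.84 for Snhg3. In the table made from the reads they were 87.0, 27.1, 16.0, 7.16, 4.92 and 7.24 in the same order, and for Snhg3 the level moved by less than 1 SD. The rank of Gas5 among long non-coding genes changed from 28 to 86 by CPM and 105 in that table. Of the 7 hosts, 2 varied beyond Poisson sampling; there were 4 in the table made from the reads (Gas5, Snhg1, Snhg5 and Snhg8), 1 with no minimum beyond 1 count (Gas5) and 1 with any 1 replicate left out, namely Gas5 without replicate 1 or 2 and Snhg1 without replicate 3. With total counts in place of TMM scaling the 2 were Gas5 and Snhg5. The share of all genes beyond Poisson sampling was 54.8% in the table made from the reads, 32.5% with no minimum and 60% with total counts. It was 43.4% without replicate 1, 27.9% without replicate 2 and 41.5% without replicate 3. As a share of counts, retained-intron transcripts made up 96.1% of Gas5, 95.8% of Snhg1 and 78.4% of Snhg8, and by TPM in the table made from the reads 71.6% of Snhg1 and 52.6% of Snhg8. In each setting run, 4 hosts stayed at or above 50%. Of all eligible genes, 36.6% did by TPM, 25.4% by counts and 41% by TPM in the table made from the reads. The share of all genes was not computed with a replicate left out. Of the 29 snoRNA genes, 7 averaged 10 counts or more in the table made from the reads and 1, Snora73b, when only strictly intronic ones were kept. The causes of these shifts were not tested. No paired analysis was possible because there is 1 group. Depth limits Snhg3 and Snhg6, which rest on 9.22 to 45 counts per library.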
